A study of Mus musculus with 30 samples.

Results

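The genes described here are 9 genes of mature B cells and plasma cells, Ighm, Ighd, Ms4a1, Cr2, Fcer2a, Jchain, Sdc1, Prdm1 and Xbp1, looked up by symbol in the bone marrow (BM) table of 13353 genes and the adipose tissue macrophage (ATM) table of 17059 genes. Of the 9 genes, 7 had a row in both tables, among 13076 genes that the tables share and 17336 in either. Ighm and Ighd, the constant regions of the IgM and IgD heavy chains, had no row in either table used here, and neither did any of the 267 immunoglobulin genes of the annotation, so the antibody genes themselves were not analysed here. The BM libraries are whole marrow and the ATM libraries are F4/80+ cells sorted from visceral fat. Recipients were WT or leptin-deficient Ob/Ob mice on a C57BL/6 background, of both sexes and, in the labels, 12 to 14 weeks of age. The paper states a lower age range for recipients at irradiation. By the study's methods they were lethally irradiated with 700 and 400 cGy and given Shp2 E76K/+;LysM-Cre+ donor marrow (CD45.2+) mixed 1:1 with Boy/J competitor marrow (CD45.1+). WT libraries carry no treatment in the labels, so that Vehicle differs from WT in the vehicle as well as in the Ob/Ob genotype. From 8 weeks after transplantation the Ob/Ob recipients were treated for 30 days with vehicle (Vehicle), the GLP-1R agonist beinaglutide at 3 mg/kg (GLP1RA), an antibody to IL-17A at 200 µg per mouse 3 times a week (AntiIL17A) or both agents (Combo). Each group had 3 libraries per tissue, called biological replicates in the labels. LysM-Cre is driven by a promoter of myeloid cells, and every group shares the irradiation and a graft mixed 1:1 with competitor marrow. The labels list genotype C57BL/6J for every library and no donor for single libraries, and a figure legend of the study names WT donor cells for the ATM comparison, so that in ATMs recipient genotype and donor cannot be told apart in Vehicle vs WT.

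Mature B cells leave the marrow for blood, spleen and lymph nodes and a part recirculates through it. They carry CD20 (Ms4a1), complement receptor CD21 (Cr2) and the low-affinity IgE receptor CD23 (Fcer2a), the latter being a mark of follicular cells and absent from precursors. When a B cell becomes a plasma cell, the repressor Blimp-1 (Prdm1) and the transcription factor XBP1 (Xbp1) set up secretion, syndecan-1 (Sdc1, CD138) appears on the surface and the J chain (Jchain) joins IgM and IgA into polymers. Prdm1, Xbp1 and Sdc1 are also used by other cells, including T cells, macrophages, secretory and epithelial cells, so in bulk RNA they do not mark plasma cells alone. In such samples fewer cells of a type and less RNA per cell cannot be told apart, and gene counts do not show the splicing of Xbp1 mRNA.

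BM libraries held 31086184 to 39925495 counts and ATM libraries 24876074 to 45300263. The biological coefficient of variation was 3.51% in BM and 32.5% in ATMs, so smaller changes could pass the test in BM. The adjusted p-values of BM rest on this small spread between libraries. Whether it covers the spread between mice cannot be told from the counts. WT library 1 of BM stood apart from the other WT libraries, with a chi-square per degree of freedom of 34.8 and 26.6 against them, where the other 13 pairs of BM libraries of a group lay between 2.02 and 4.21. Leaving it out changed no count of members called in BM. In the ATM libraries all 10 macrophage markers listed were detected, with a summed level of 2688 to 16263 CPM. CPM are counts scaled to the effective library size, which is the library total multiplied by the TMM scaling factor of that library. Markers of other cells were present beside the macrophage markers (given with the ATM results). A gene is called here when its Benjamini-Hochberg adjusted p, over all genes of the table, is below 0.05 and its log2 fold change is beyond 1 in either direction. Levels are normalized counts, which are counts scaled to the mean effective library size of the tissue, given for libraries 1, 2 and 3 in that order.

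The promoters of the members whose levels moved together or apart are shown so that the letters can be read beside the values. RefSeq windows of 300 bases, which run from upstream of the start site into the transcript (build GRCm38.p6), were at hand for 6 of the 9 members, and 4 are printed 5′ to 3′ on the strand of the gene. Capitals mark the octamer ATGCAAAT, GAGGAA (the PU.1 core), GGGCGG (the GC box), CCACG (a core of the element bound in the unfolded protein response), the ISRE core and TATAAA, searched on both strands. The windows are Jchain chr5:88527848-88528147 (- strand), Sdc1 chr12:8771146-8771445 (+ strand), Fcer2a chr8:3694125-3694424 (- strand) and Cr2 chr1:195176670-195176969 (- strand).
Jchain: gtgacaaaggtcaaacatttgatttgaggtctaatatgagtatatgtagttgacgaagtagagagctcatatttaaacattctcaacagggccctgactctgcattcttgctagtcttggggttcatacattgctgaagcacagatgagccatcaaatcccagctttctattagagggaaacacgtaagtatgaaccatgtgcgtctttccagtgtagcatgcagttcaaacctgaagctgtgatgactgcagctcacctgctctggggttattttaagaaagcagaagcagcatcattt
Sdc1: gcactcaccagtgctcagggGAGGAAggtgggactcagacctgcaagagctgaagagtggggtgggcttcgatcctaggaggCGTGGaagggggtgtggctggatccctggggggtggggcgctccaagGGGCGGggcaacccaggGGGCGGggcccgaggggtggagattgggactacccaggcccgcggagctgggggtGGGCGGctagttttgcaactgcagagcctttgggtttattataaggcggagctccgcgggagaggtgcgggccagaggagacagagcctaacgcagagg
Fcer2a: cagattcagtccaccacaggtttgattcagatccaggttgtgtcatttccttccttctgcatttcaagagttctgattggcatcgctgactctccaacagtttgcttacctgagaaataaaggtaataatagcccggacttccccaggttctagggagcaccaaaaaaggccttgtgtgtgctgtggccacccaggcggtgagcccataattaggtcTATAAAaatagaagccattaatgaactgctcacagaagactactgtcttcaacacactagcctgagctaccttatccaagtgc
Cr2: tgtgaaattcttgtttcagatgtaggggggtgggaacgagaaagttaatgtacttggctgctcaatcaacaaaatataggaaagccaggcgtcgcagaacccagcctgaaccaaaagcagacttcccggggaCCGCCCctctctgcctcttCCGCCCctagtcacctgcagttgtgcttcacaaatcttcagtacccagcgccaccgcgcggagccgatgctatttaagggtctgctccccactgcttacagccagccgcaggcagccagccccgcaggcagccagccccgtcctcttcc
Jchain and Sdc1, the pair that moved together in BM, have unlike windows. The Jchain window held none of the 6 marked motifs and was 42.3% G and C. That of Sdc1 held 3 GC boxes, 1 GAGGAA and 1 CCACG and was 66.3% G and C. The E-box CANNTG was searched too and is not marked. It occurred 4 times in the Jchain window, 1 time in Sdc1, 1 time in Fcer2a and 3 times in Cr2, and 72.3% of all windows hold it. Fcer2a held 1 TATAAA, which begins at -33 from the start site, and Cr2 held 2 GC boxes. Of 32851 windows of this length, 35.7% hold GGGCGG, 32.8% CCACG, 28.3% GAGGAA, 13.6% TATAAA, 3.44% the ISRE core and 1.74% the octamer. In GENCODE M21 (GRCm38) the genes lie at chr19:11249675-11266241 for Ms4a1, chr1:195136811-195176716 for Cr2, chr8:3681737-3694175 for Fcer2a, chr5:88519809-88527891 for Jchain, chr12:8771323-8793715 for Sdc1, chr10:44437177-44528501 for Prdm1 and chr11:5520659-5525893 for Xbp1, all protein-coding, and no exon of another gene overlaps theirs.

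In BM, the 3 surface genes of mature B cells and the plasma cell genes Jchain and Sdc1 were lower in Vehicle than in WT recipients. Of the 7 members 5 were called lower and 1 higher, where 10% of 13353 genes were called lower and 9.44% higher. Fcer2a (CD23) fell most, from a mean of 1399 ± 46.2 (SD, n = 3) to 30.5 ± 11.3, which is 46-fold, while Ms4a1, Cr2, Jchain and Sdc1 fell between 4.37-fold and 7.16-fold. Prdm1 was the member called higher, and Xbp1 was higher by less than the fold limit.

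Ms4a1, the CD20 gene, counted 6546, 5112 and 5275 in WT, 1180.5, 1089 and 981 in Vehicle, 344, 380.4 and 364 in GLP1RA, 1229, 1202 and 1195 in AntiIL17A, and 347, 377 and 321 in Combo. WT lay above every other library, AntiIL17A just above Vehicle, and GLP1RA and Combo overlapped at the bottom. Vehicle was 5.21-fold lower than WT (log2 fold change -2.38 ± 0.093 (SE), adjusted p = 3.8e-11). Cr2, which codes for CD21, counted 551, 469 and 523 in WT, 72.6, 74.1 and 68.4 in Vehicle, 30, 43.8 and 48 in GLP1RA, 107, 95.3 and 103 in AntiIL17A, and 31.9, 38.1 and 42.8 in Combo. Its order was that of Ms4a1, with GLP1RA and Combo again overlapping, and Vehicle was 7.16-fold lower than WT (log2 fold change -2.84 ± 0.13 (SE), adjusted p = 5.87e-22). Fcer2a counted 1355, 1395 and 1447 in WT, 21.5, 26.8 and 43.2 in Vehicle, 86.2, 115 and 82.8 in GLP1RA, 235, 278 and 280.2 in AntiIL17A, and 58.6, 57.2 and 57.4 in Combo. Here Vehicle was the lowest group and no 2 groups overlapped, so that the order differed from that of the other 2 surface genes. The fall from WT to Vehicle gave log2 fold change -5.52 ± 0.13 (SE), adjusted p = 2.75e-32.

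Jchain was the most abundant member of BM per exon length, with a mean of 346 RPKM (counts scaled by depth and exon length) in WT, before Xbp1, against 26.2 for Ms4a1, 13.0 for Fcer2a, 5.87 for Sdc1, 1.82 for Cr2 and 0.525 for Prdm1. It counted 31163, 29606 and 30105 in WT, 7017, 6887 and 6868 in Vehicle, 18400, 18331 and 17946 in GLP1RA, 14522, 14086 and 14216 in AntiIL17A, and 8314, 7901 and 8505 in Combo normalized counts. The 5 groups did not overlap and ran from WT through GLP1RA, AntiIL17A and Combo to Vehicle. Sdc1, which codes for the plasma cell surface proteoglycan CD138, counted 715, 821 and 798 in WT, 155, 168 and 197 in Vehicle, 466, 425 and 454 in GLP1RA, 329, 329.9 and 297 in AntiIL17A, and 171, 181 and 168 in Combo. It followed the same order, except that Combo and Vehicle overlapped. Vehicle was 4.37-fold lower than WT for Jchain (log2 fold change -2.13 ± 0.026 (SE), adjusted p = 3.43e-42) and 4.49-fold lower for Sdc1 (log2 fold change -2.17 ± 0.092 (SE), adjusted p = 2.42e-23).

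The 2 regulators of the plasma cell state did not follow Jchain. Prdm1 counted 106, 100.2 and 99.1 in WT, 183, 235 and 218 in Vehicle, 172, 159 and 158 in GLP1RA, 89.3, 71.9 and 103 in AntiIL17A, and 72, 52.9 and 68.9 in Combo. Vehicle was highest, and WT overlapped AntiIL17A, which overlapped Combo. Vehicle was 2.08-fold above WT (log2 fold change 1.05 ± 0.14 (SE), adjusted p = 2.4e-08), a call that was lost without Vehicle library 2, where the log2 fold change was 0.97. Xbp1 counted 5032, 5019.9 and 5219.7 in WT, 6846, 6927 and 6789.9 in Vehicle, 4422, 4269 and 4361 in GLP1RA, 5187, 5044 and 4885 in AntiIL17A, and 7435, 7281 and 7494 in Combo. Combo and Vehicle were above WT, which overlapped AntiIL17A, and GLP1RA was lowest. Vehicle was 1.35-fold of WT (log2 fold change 0.43 ± 0.028 (SE), adjusted p = 4.18e-17), under the fold limit. All 7 members passed the test across 5 groups at an adjusted p below 0.05, as did 95.1% of all BM genes.

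**Figure D1:**
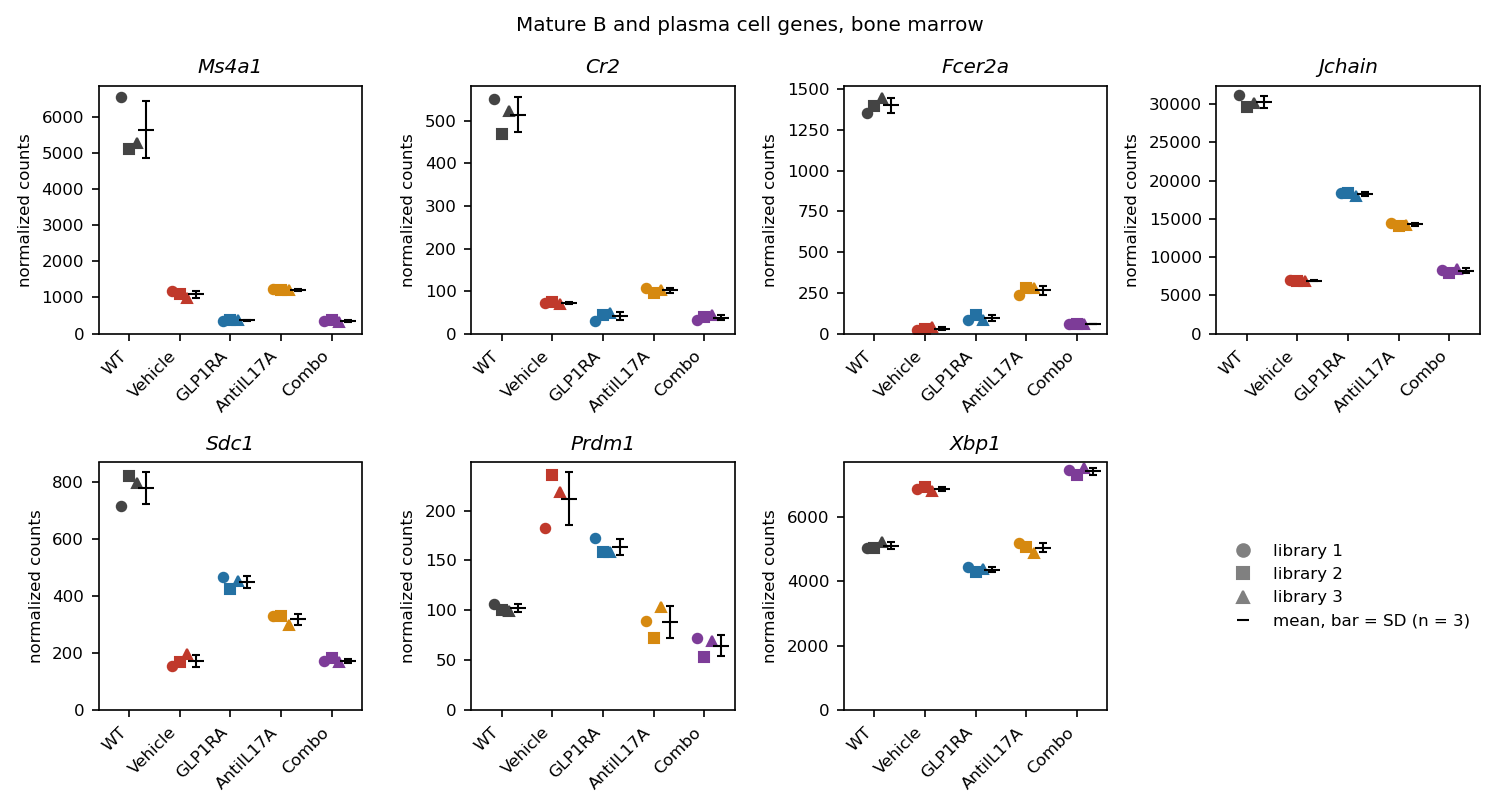
Normalized counts of the 7 members in each BM library (vertical axes, from 0) by group; symbols are libraries 1, 2 and 3, and the line and bar beside them are the mean and SD (n = 3). WT is highest for Ms4a1, Cr2, Fcer2a, Jchain and Sdc1, while Prdm1 is highest in Vehicle and Xbp1 in Combo.

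Each single agent was compared with Vehicle to ask how these genes differ under treatment. With GLP1RA, Jchain, Sdc1 and Fcer2a rose while Ms4a1 fell further. The 3 members called higher were Jchain, 2.63-fold (log2 fold change 1.40 ± 0.026 (SE), adjusted p = 5.19e-36), Sdc1, 2.59-fold (log2 fold change 1.37 ± 0.097 (SE), adjusted p = 4.07e-16), and Fcer2a, 3.14-fold (log2 fold change 1.65 ± 0.19 (SE), adjusted p = 5.03e-10), where 7.6% of genes were called higher. Ms4a1 was the member called lower, 2.99-fold (log2 fold change -1.58 ± 0.12 (SE), adjusted p = 5.76e-08), where 9.08% of genes were. Cr2 (log2 fold change -0.82 ± 0.19), Prdm1 (-0.38 ± 0.14) and Xbp1 (-0.66 ± 0.028) lay below Vehicle by less than the fold limit.

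With AntiIL17A, Fcer2a rose 8.73-fold (log2 fold change 3.13 ± 0.16 (SE), adjusted p = 1.19e-20) and Jchain 2.06-fold (log2 fold change 1.04 ± 0.026 (SE), adjusted p = 2.28e-31), 2 members called higher where 7.65% of genes were. Prdm1 fell 2.4-fold (log2 fold change -1.27 ± 0.15 (SE), adjusted p = 5.71e-10), where 8.46% of genes were called lower. Ms4a1 differed from Vehicle by a log2 value of 0.16 ± 0.10 (adjusted p = 0.185), which did not pass the test although all 3 libraries lay above those of Vehicle. Sdc1 was 1.84-fold of Vehicle (log2 fold change 0.88 ± 0.10 (SE), adjusted p = 3.57e-10), just inside the fold limit.

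With Combo, Ms4a1 and Prdm1 fell from Vehicle. None of the 7 members was called higher in edgeR, where 6.58% of genes were, although Jchain, Fcer2a and Xbp1 had positive changes with an adjusted p below 0.05. Jchain was 1.19-fold of Vehicle (log2 fold change 0.25 ± 0.026 (SE), adjusted p = 4.39e-11) and Sdc1 gave a log2 value of 0.0034 ± 0.11 (adjusted p = 0.981). Ms4a1 fell 3.11-fold (log2 fold change -1.64 ± 0.12 (SE), adjusted p = 4.68e-08) and Prdm1 3.28-fold (log2 fold change -1.71 ± 0.16 (SE), adjusted p = 1.02e-12), the 2 members called lower where 11.1% of genes were. Without Vehicle library 3 the calls were 4, as Fcer2a (log2 fold change 1.20) and Cr2 (-1.01) then passed the fold limit, and Cr2 also passed without Combo library 3 (-1.03).

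Set against each single agent, Combo had 3 members called lower and none called higher in edgeR. Against GLP1RA it was lower for Jchain (2.21-fold), Sdc1 (2.58-fold) and Prdm1 (2.52-fold), 3 members called lower where 8.57% of genes were, and none was called higher, where 4.59% were. Against AntiIL17A it was lower for Ms4a1 (3.47-fold), Cr2 (2.7-fold) and Fcer2a (4.58-fold), where 4.63% of genes were called lower, and again none was higher, where 1.04% were. The largest adjusted p of these 6 calls in edgeR was 3.34e-08. Xbp1 was higher than in both by less than the fold limit (log2 fold changes 0.77 ± 0.028 and 0.56 ± 0.028). Against WT, 5 members were called lower in Combo, where 9.93% of genes were called lower and 4.4% higher, with Ms4a1 at 16.2-fold, Fcer2a at 24.2-fold, Cr2 at 13.7-fold, Sdc1 at 4.48-fold and Jchain at 3.68-fold lower. The comparisons with Vehicle and those with Combo share their control libraries and are not independent of each other.

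Ratios between members of 1 library do not depend on its depth. In BM, Sdc1 had 2.57 ± 0.25 (SD, n = 3) counts per 100 counts of Jchain in WT, 2.50 ± 0.33 in Vehicle, 2.46 ± 0.12 in GLP1RA, 2.23 ± 0.13 in AntiIL17A and 2.11 ± 0.16 in Combo. The 15 libraries thus lay between 1.97 and 2.86 while Jchain itself differed 4.37-fold between WT and Vehicle. The CD23 gene did not keep such a ratio to the CD20 gene. Fcer2a had 25.1 ± 3.8 counts per 100 counts of Ms4a1 in WT and 2.90 ± 1.3 in Vehicle, with no overlap, and 26.0 ± 3.8 in GLP1RA, 21.9 ± 2.4 in AntiIL17A and 16.6 ± 1.4 in Combo. Every treated library, from 15.2 up, lay above every Vehicle library, at most 4.40, although Ms4a1 in GLP1RA and Combo was lower than in Vehicle. Cr2 per 100 Ms4a1 moved less, from 9.17 ± 0.75 in WT to 6.64 ± 0.43 in Vehicle and 11.1 ± 2.3 in GLP1RA. Jchain per count of Ms4a1 was 5.42 ± 0.57 in WT, 6.42 ± 0.53 in Vehicle, 50.3 ± 2.8 in GLP1RA, 11.8 ± 0.087 in AntiIL17A and 23.8 ± 2.8 in Combo. These ratios are of counts, not corrected for length, and were not tested.

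**Figure D2:**
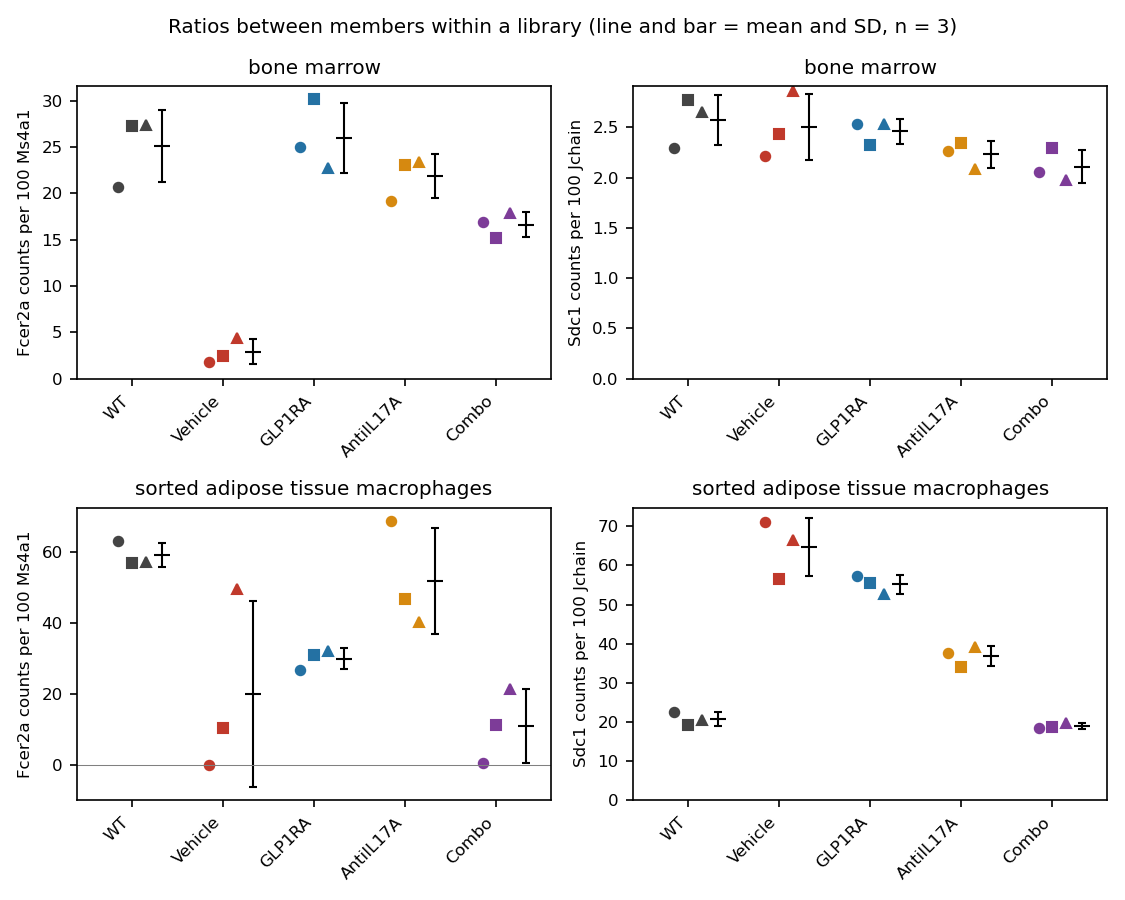
Counts of Fcer2a per 100 counts of Ms4a1 (left) and of Sdc1 per 100 counts of Jchain (right) in each library of BM (top) and ATMs (bottom); symbols are libraries 1, 2 and 3 and the line and bar are the mean and SD (n = 3). In BM the Fcer2a ratio is at most 4.40 in Vehicle and at least 15.2 in all other groups, whereas the Sdc1 ratio stays between 1.97 and 2.86; in ATMs the Sdc1 ratio runs from 18.4 to 71.0.

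Most other B cell genes of the lists were lower in BM of Vehicle too. Of 14 pan B cell genes 10 were lower than in WT and none higher (median log2 fold change -1.64, over all genes -0.017), as were 12 of 17 genes of mature and follicular B cells (median -1.43). Cd79a, the signalling chain of the B cell receptor, fell from 13170 to 4552 normalized counts on average, Spib from 7849 to 2151 and Blk from 2316 to 584. Among the mature genes Fcrla fell from 6035 to 748 and Bank1 from 1699 to 260, whereas Klf2, which T cells and myeloid cells share, was not called. Of 14 plasma cell genes tested 6 were lower and none higher (median -0.86). Irf4 fell from 2230 to 409, the coactivator gene Pou2af1 from 5780 to 1696 and the BCMA gene Tnfrsf17 from a mean of 44.5 to 1.12, which is near the floor of the counts. Txndc5 and Prg2, the other abundant genes of the list, were not called, and Prg2 is a granule gene of eosinophils as well. Of 20 genes of the unfolded protein response and secretion 1, Dnajb9, was lower (1550 to 771), while the abundant Calr, Hspa5 and Hsp90b1 kept log2 values between -0.16 and 0.16.

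With GLP1RA both B cell lists were lower than in Vehicle, with 11 of 14 pan B genes and 9 of 17 mature B genes lower and none higher in either list. Cd72 fell from 964 to 176 and Pax5, the B-lineage identity factor, from 448 to 86.0. Of the 14 plasma cell genes 3 were lower, Slamf7 (1430.4 to 228), Pou2af1 (1696 to 759) and Fkbp11 (265 to 112). The 1 plasma cell gene called higher was Tnfrsf17, from 1.12 counts on average. Pou2af1 stands in the pan B list too. The mature B list had 9 of 17 genes lower with Combo as well, and none higher in edgeR (median -1.08, and -1.03 with GLP1RA). With AntiIL17A 2 of the 17 were higher and 3 lower (median -0.038). Of the 20 genes of the unfolded protein response and secretion 5 were lower with GLP1RA and edgeR called none higher (median -0.54), among them the chaperones Hspa5 (38052 to 15730.4) and Calr (40313 to 19305) and the disulfide isomerase Pdia4 (4120.4 to 1501). With AntiIL17A and with Combo the only gene of that list called was Ddit3, lower in both. With AntiIL17A no pan B gene was called by edgeR or DESeq2, although 7 were higher and 3 lower at an adjusted p below 0.05 in edgeR with no fold limit (median 0.12), while 2 plasma cell genes were higher, Irf4 (409 to 949.5) and Tnfrsf17 (1.12 to 19.8), and 2 lower, Slamf7 (1430.4 to 578) and Fkbp11 (265 to 111). With Combo 11 of 14 pan B genes were lower, Cd22 falling from 1221 to 332 and Blnk from 1081 to 299. Among the 3 most abundant of the 14, Cd79a fell (4552 to 1346). Ptprc (17826 to 24560.5) and Cd37 (4913 to 6532) lay above Vehicle by less than the fold limit. The summed pan B level was 1248 to 1271 CPM in Vehicle and 1196 to 1213 in Combo. Of 14 plasma cell genes 3 were lower with Combo (Slamf7, Cd28 and Pou2af1) and 1, Tnfrsf17, was higher (1.12 to 20.5). The myeloid background also differed between the groups. The summed level of 8 neutrophil genes of BM was 90151 to 98762 CPM in WT, 92420 to 95077 in Vehicle, 64977 to 65665 in GLP1RA, 75806 to 77066 in AntiIL17A and 106600 to 108540 in Combo, and that of 10 macrophage genes was 14143 to 14438 in WT, 5036 to 5062 in Vehicle, 4295 to 4318 in GLP1RA, 7822 to 7879 in AntiIL17A and 8237 to 8332 in Combo. Under the single agents the neutrophil calls did not follow the neutrophil sums. Against Vehicle, 1 of the 8 neutrophil genes was called higher with GLP1RA, 2 with AntiIL17A and 5 with Combo, and edgeR called none lower. Their median log2 fold changes were -0.0032, 0.63 and 1.13. From WT to Vehicle 1 of the 8 was lower and none higher in edgeR (median -0.38). Lyz2 gave most of the macrophage sum, with 448727 normalized counts in WT and 120565 in Vehicle. From WT to Vehicle 2 of the 10 were higher (Mertk and Fcgr1) and 1 lower (Lyz2), and from Vehicle to Combo 5 were lower (Mertk, Fcgr1, C1qa, C1qb and C1qc) and none higher in edgeR, while Lyz2 (120565 to 219280) was above Vehicle by less than the fold limit. Their part in the values above was not tested.

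In the sorted ATMs, Ms4a1, Cr2 and Fcer2a were likewise lower in Vehicle than in WT, but Sdc1 was higher and Jchain was lower by less than the fold limit. Of the 7 members 3 were called lower, where 22.9% of 17059 genes were, and 1 higher, where 12.5% were, so that the number of members lower is read against a high background. Over all ATM genes the median log2 fold change of this comparison was -0.21.

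Ms4a1 counted 839.6, 1142 and 1191 in WT, 158, 238 and 196 in Vehicle, 482, 375 and 453 in GLP1RA, 195, 367 and 365 in AntiIL17A, and 695, 551 and 508 in Combo. WT was highest, and Vehicle overlapped AntiIL17A alone. Vehicle was 5.37-fold lower than WT (log2 fold change -2.42 ± 0.26 (SE), adjusted p = 1.04e-06). Cr2 counted 191, 222 and 242 in WT, 0, 48.4 and 0 in Vehicle, 64.7, 42 and 37.5 in GLP1RA, 52.6, 55.1 and 105 in AntiIL17A, and 6.91, 66.8 and 29.4 in Combo. In Vehicle libraries 1 and 3 it had 0 counts, where a count of 0 allows up to 3 counts, and 33 in library 2. The 4 groups of Ob/Ob recipients overlapped, each with the next in the order of the means, and Vehicle was below WT (log2 fold change -3.75 ± 1.21 (SE), adjusted p = 0.0156). Fcer2a counted 529, 650.1 and 681 in WT, 0, 25 and 97.3 in Vehicle, 128, 117 and 146 in GLP1RA, 134, 171 and 147 in AntiIL17A, and 3.46, 62.3 and 108 in Combo, or 0, 17 and 65 raw counts in Vehicle and 4, 69 and 114 in Combo. Its fall from WT to Vehicle (log2 fold change -3.94 ± 1.01 (SE), adjusted p = 0.00362) has a wide error, since the 3 Vehicle libraries run from 0 to 65 counts.

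Jchain counted 10956, 12030 and 12111 in WT, 8847, 9229 and 9848 in Vehicle, 12650.4, 13293 and 13105 in GLP1RA, 18629, 18965 and 18782 in AntiIL17A, and 29505, 30237 and 27801 in Combo. The 5 groups did not overlap, and the order was Combo, AntiIL17A, GLP1RA, WT and Vehicle. Vehicle was 1.26-fold below WT (log2 fold change -0.33 ± 0.049 (SE), adjusted p = 3.25e-05), which is within the fold limit. Sdc1 counted 2464, 2307 and 2487 in WT, 6282, 5221 and 6562 in Vehicle, 7262, 7393 and 6896 in GLP1RA, 6991, 6455 and 7349 in AntiIL17A, and 5439, 5666 and 5510 in Combo. WT was below all other libraries and the 4 other groups overlapped in part, with Vehicle 2.49-fold above WT (log2 fold change 1.32 ± 0.077 (SE), adjusted p = 7.21e-10). Per exon length Jchain was again the highest member in WT, at 140 RPKM, before Xbp1 at 82.3, Sdc1 at 19.1, Fcer2a at 6.04, Ms4a1 at 5.15, Prdm1 at 3.08 and Cr2 at 0.810.

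Prdm1 counted 678, 408 and 628 in WT, 1672, 1042 and 589.7 in Vehicle, 1011, 916 and 954 in GLP1RA, 1009, 652 and 904 in AntiIL17A, and 1866, 1274 and 1636 in Combo. Vehicle overlapped each of the other groups, and its difference from WT (log2 fold change 0.95 ± 0.30 (SE), adjusted p = 0.0132) missed the fold limit and passed it without WT library 1, WT library 3 or Vehicle library 3, at up to 1.25. Xbp1 counted 8465, 9006 and 9155 in WT, 13662, 12583 and 14138 in Vehicle, 8123, 9127 and 8188 in GLP1RA, 6967, 5217 and 5977 in AntiIL17A, and 9707, 9909 and 10082 in Combo. Vehicle was highest and AntiIL17A lowest, with the change from WT to Vehicle at 1.52-fold (log2 fold change 0.60 ± 0.083 (SE), adjusted p = 1.6e-05). All 7 members passed the test across 5 groups, where 73.5% of genes did. Cr2 was the closest to the limit (adjusted p = 0.0496).

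**Figure D3:**
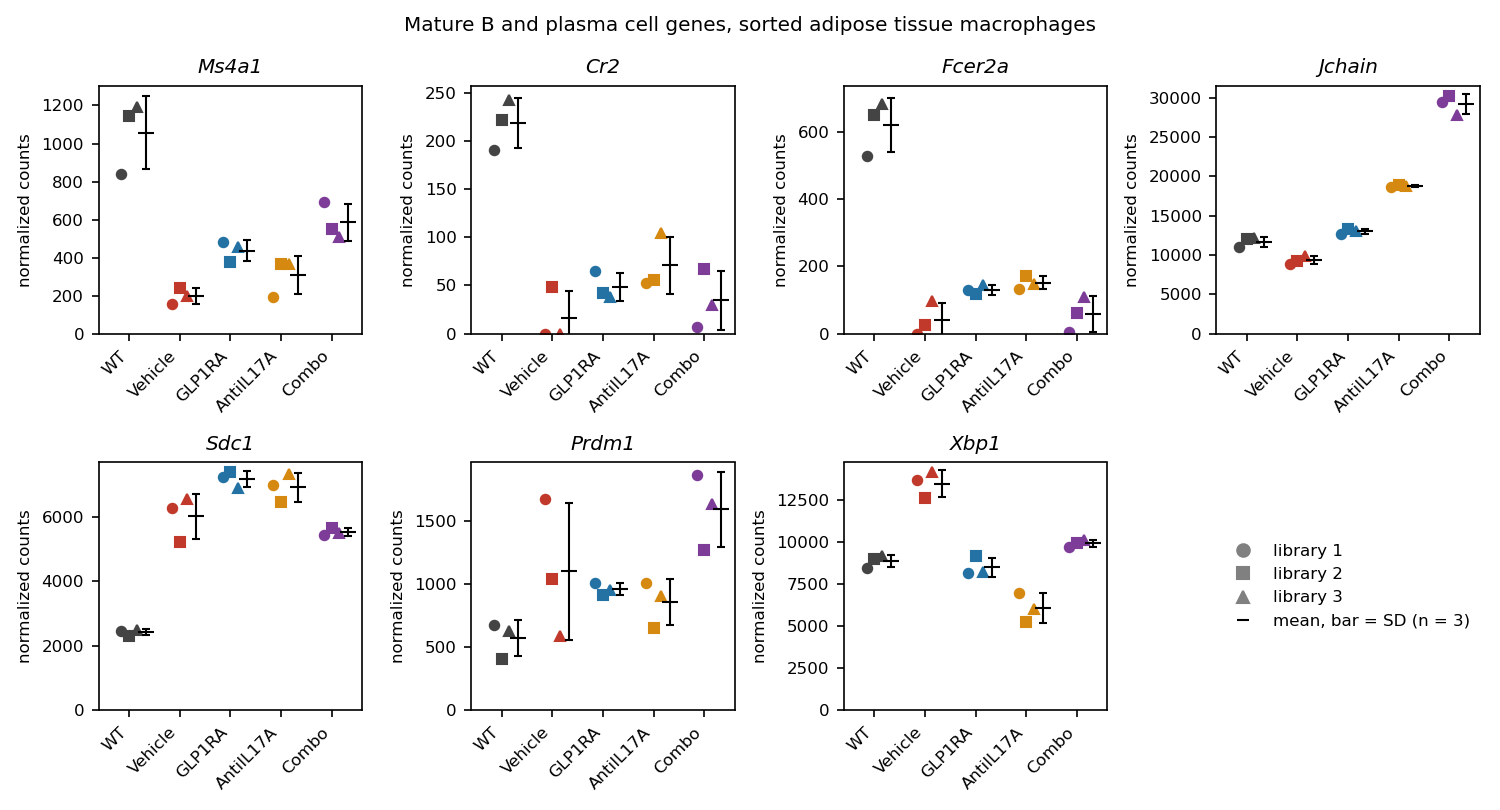
Normalized counts of the 7 members in each ATM library (vertical axes, from 0) by group; symbols are libraries 1, 2 and 3, and the line and bar are the mean and SD (n = 3), cut off at 0. Jchain is highest in Combo, at 27801 or more, Sdc1 lowest in WT, at 2487 or less, and Cr2 is at 0 in 2 of the 3 Vehicle libraries.

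The J chain gene was highest in the ATM fraction of Combo, above every other library. Against Vehicle, Jchain was 3.14-fold higher (log2 fold change 1.65 ± 0.05 (SE), adjusted p = 2.42e-13) and Ms4a1 2.97-fold higher (log2 fold change 1.57 ± 0.26 (SE), adjusted p = 0.0001), the 2 members called higher where 14.1% of genes were, and none of the members was called lower in edgeR, where 12.2% were, Xbp1 being lower by less than the fold limit (log2 fold change -0.44 ± 0.083 (SE), adjusted p = 0.000356). Against WT, Combo was higher for Jchain (2.49-fold), Sdc1 (2.29-fold) and Prdm1 (2.79-fold), where 7.08% of genes were called higher, and lower for Fcer2a (10.7-fold), where 14.5% were called lower. Cr2 was also below WT in every Combo library, at log2 fold change -2.66 ± 1.13 (SE), adjusted p = 0.074, and was called in DESeq2 (adjusted p = 0.0312) and without any 1 of the 3 Vehicle libraries.

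Under the single agents 1 member was called with GLP1RA and 2 with AntiIL17A. With GLP1RA, Ms4a1 was 2.22-fold higher (log2 fold change 1.15 ± 0.25 (SE), adjusted p = 0.00132), 1 member where 20.8% of genes were called higher, and none was called lower in edgeR, where 10.9% were. Fcer2a in GLP1RA lay above Vehicle in all 3 libraries, with a log2 value of 1.69 ± 0.95 (adjusted p = 0.148), which passed the threshold without Vehicle library 3 (3.41). Cr2 in Vehicle is at 0 in all libraries left once library 2 is left out, so that its calls against Vehicle there have no fold. With AntiIL17A, Jchain was 2.02-fold higher (log2 fold change 1.01 ± 0.049 (SE), adjusted p = 6.68e-11), where 22.4% of genes were called higher, and Xbp1 2.22-fold lower (log2 fold change -1.15 ± 0.084 (SE), adjusted p = 1.02e-08), where 13.1% were called lower. The Jchain value lies at the fold limit and fell to 0.97 without Vehicle library 1. Fcer2a gave log2 fold change 1.90 ± 0.95 (SE), adjusted p = 0.0997, and 2.43 (adjusted p = 0.0401) with the replicate number as a block, and it also passed without Vehicle library 3 (3.61) or Combo library 1. Against GLP1RA, Combo was higher for Jchain (2.24-fold, adjusted p = 3.8e-11 in edgeR), where 5.38% of genes were called higher and 13.4% lower. Against AntiIL17A none of the 7 members was called by edgeR, where 3.73% of genes were called higher and 10.5% lower, or by DESeq2. Of the members 5, Jchain, Ms4a1, Prdm1, Xbp1 and Sdc1, had an unadjusted and an adjusted p below 0.05 there, and Ms4a1 or Prdm1 was called (at most 1.06 on the log2 scale) without any 1 of 5 libraries, AntiIL17A 1, 2 or 3 and Combo 2 or 3.

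In ATMs Sdc1 and Jchain did not keep the ratio of BM. Sdc1 had 20.7 ± 1.7 counts (SD, n = 3) per 100 counts of Jchain in WT, 64.7 ± 7.4 in Vehicle, 55.2 ± 2.4 in GLP1RA, 36.9 ± 2.6 in AntiIL17A and 19.0 ± 0.73 in Combo, so that its lowest value, 18.4, was above the highest of BM, 2.86. Fcer2a per 100 Ms4a1 was 59.0 ± 3.4 in WT, 30.0 ± 2.9 in GLP1RA and 51.9 ± 15 in AntiIL17A, and it ranged from 0 to 49.6 in Vehicle and from 0.498 to 21.3 in Combo.

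Other genes of plasma cells rose in the Combo ATMs with Jchain, and so did markers of other cells. Of 14 plasma cell genes 9 were higher than in Vehicle and none lower in edgeR (median log2 fold change 1.69, over all genes 0). Mzb1, a chaperone gene of antibody-secreting cells, rose from a mean of 423 to 4430 and Cd28, shared with T cells, from 991 to 6688, while Txndc5 had means of 4857 and 9700.1 and was not called, lying at the fold limit, as Ell2 (2733 and 3129) was not. The summed level of the plasma cell list was 532 to 546 CPM in Vehicle and 1034 to 1099 in Combo. The 8 T cell genes measured were all higher, with sums of 113 to 131 CPM in Vehicle and 916 to 935 in Combo, and the 8 pancreatic acinar genes summed to 981 to 999.6 CPM in Combo against at most 27.6 in any other library, with Cela3b and Pnlip at 0 in all groups but Combo. The neutrophil sum was 18397 to 19620 CPM in Vehicle and 9697 to 9990 in Combo against 149 to 313 in the other groups, and the macrophage sum was 2688 to 2850 in Vehicle against 11385 to 11447 in Combo. Of 8 neutrophil genes 3 were higher and 3 lower in Combo than in Vehicle, and of 10 macrophage genes 6 were higher and 1 lower. T cell and macrophage genes rose from Vehicle under the single agents too. With GLP1RA 8 of 8 T cell genes were higher, and 7 of 10 macrophage genes higher and 1 lower. With AntiIL17A 7 of 8 T cell genes were higher, and 8 of 10 macrophage genes higher and 1 lower. Of 14 pan B genes 5 were higher in Combo than in Vehicle and none lower in edgeR. Of 17 mature B genes 8 were higher and 4 lower. The part of these cells in the members' values was not tested.

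For the lists in Vehicle against WT, 6 of 14 pan B cell genes were lower and 1 higher, Cd72 (median -1.16), with Cd79a falling from 4307 to 743 and Cd79b from 1043 to 247. Of 17 mature B cell genes 9 were lower and 4 higher. Bank1 fell from 1007 to 31.7 and H2-Ob, a chaperone subunit of B cell antigen presentation, from 1085 to 136, whereas Klf2 (8943 to 26076), S1pr1 (7069 to 29207) and Cd40, which other cells also express, were among those that rose. Plasma cell genes were lower in 5 of 14 and higher in 1 (median -0.82). These list counts are read against all ATM genes, of which 22.9% were called lower and 12.5% higher (median -0.21). Derl3 fell from 451 to 95.7 and Irf4 from 1309 to 443, beside Cd28, Txndc5 and Fkbp11, while Slamf7 rose from 1368 to 3297. Of 20 genes of the unfolded protein response 2 rose, Ddit3 (1299 to 6514) and Atf4 (6743 to 18782), and 1, Dnajc3, fell (6804 to 3315). The markers of epithelial cells, which express Sdc1 strongly, summed to 794 to 825 CPM in WT and 517 to 567 in Vehicle, and of these 7 genes 2 were lower (Krt19 and Epcam), 1 higher (Cldn4) and 4 not called. Those of mesothelial cells summed to 1124 to 1190 CPM in WT and 48.8 to 57.7 in Vehicle, and the part of either cell type in the Sdc1 values was not tested. The adipocyte sum was 1182 to 1190 CPM in WT and 4001 to 4247 in Vehicle.

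**Figure D4:**
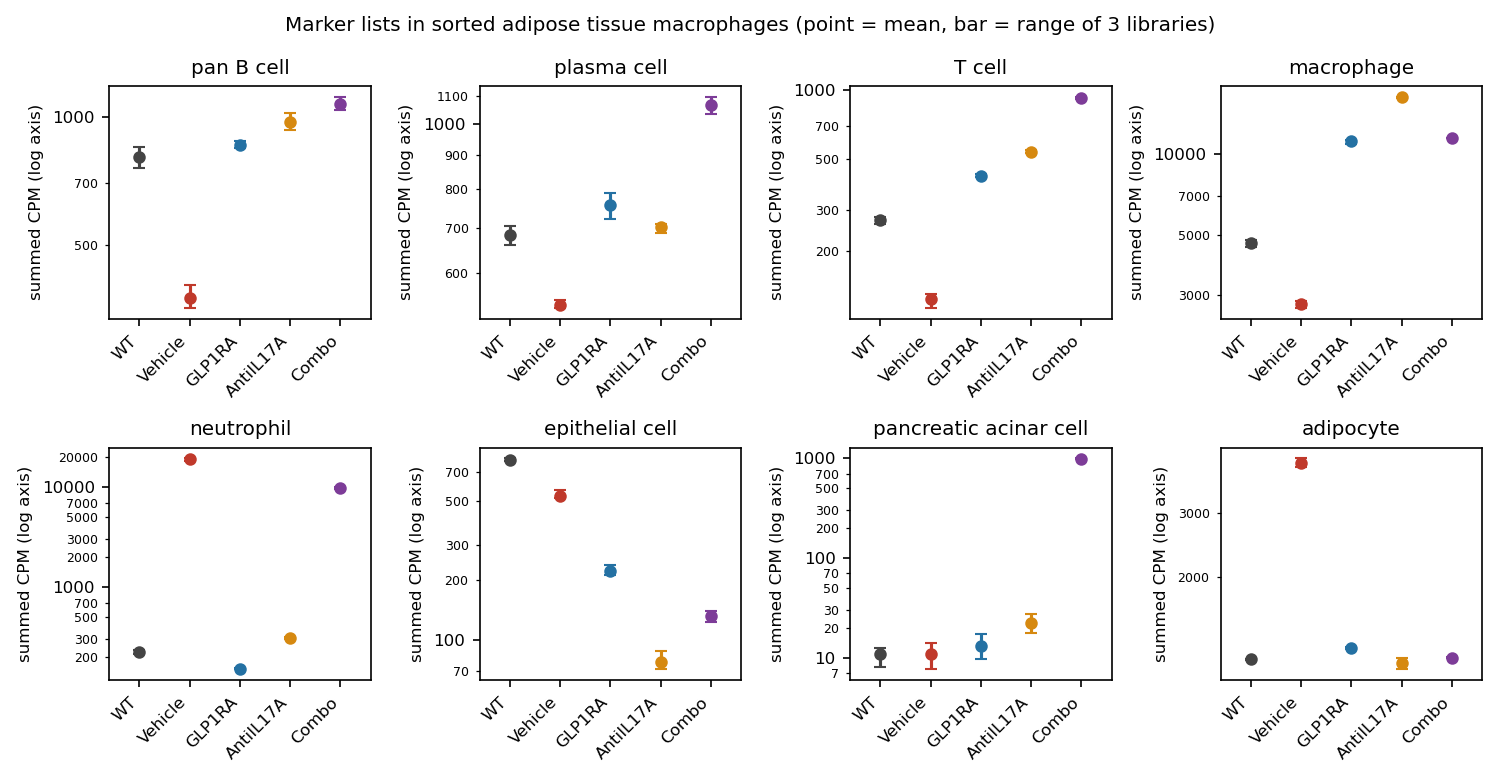
Summed level of 8 marker lists in ATMs (vertical axes, CPM, logarithmic) by group; points are means and bars the range of 3 libraries. The plasma cell and T cell lists are highest in Combo (1034 to 1099 and 916 to 935 CPM), the pancreatic acinar list is above 27.6 CPM in Combo alone, and the neutrophil list is high in Vehicle and Combo.

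Whether BM and ATMs responded unequally was asked in a single fit of all 30 libraries. That fit gave each gene 1 estimate of spread for both tissues, although BM and ATMs differed in spread. Libraries of BM and ATMs were not paired in it. With limma voom and a weight per tissue, the SE of the Ms4a1 difference in Combo vs Vehicle was 0.64 (adjusted p = 0.00014). For Vehicle vs WT, 2 of 7 members differed, where 56% of 13076 genes did. Sdc1 fell in BM and rose in ATMs (BM minus ATM log2 difference -3.49 ± 0.12 (SE), adjusted p = 6.26e-19), and Jchain fell in BM and was not called in ATMs (-1.80 ± 0.056 (SE), adjusted p = 7.7e-20). For the surface genes the difference was 0.04 ± 0.25 (SE), adjusted p = 0.897 for Ms4a1, 0.92 ± 0.96 (SE), adjusted p = 0.43 for Cr2 and -1.57 ± 0.90 (SE), adjusted p = 0.141 for Fcer2a. Ms4a1 fell 5.21-fold in BM and 5.37-fold in ATMs. For Combo vs Vehicle, 4 of 7 members differed, where 55.1% of genes did. Ms4a1 fell in BM and rose in ATMs (-3.25 ± 0.27 (SE), adjusted p = 6.05e-11), Jchain was called higher in ATMs and not in BM (-1.44 ± 0.056 (SE), adjusted p = 9.87e-18), Prdm1 was lower in BM and not called in ATMs (-2.28 ± 0.37 (SE), adjusted p = 9.11e-06), and Xbp1, called in neither tissue, had a higher log2 fold change in BM (0.51 ± 0.092 (SE), adjusted p = 3.28e-05).

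**Figure D5:**
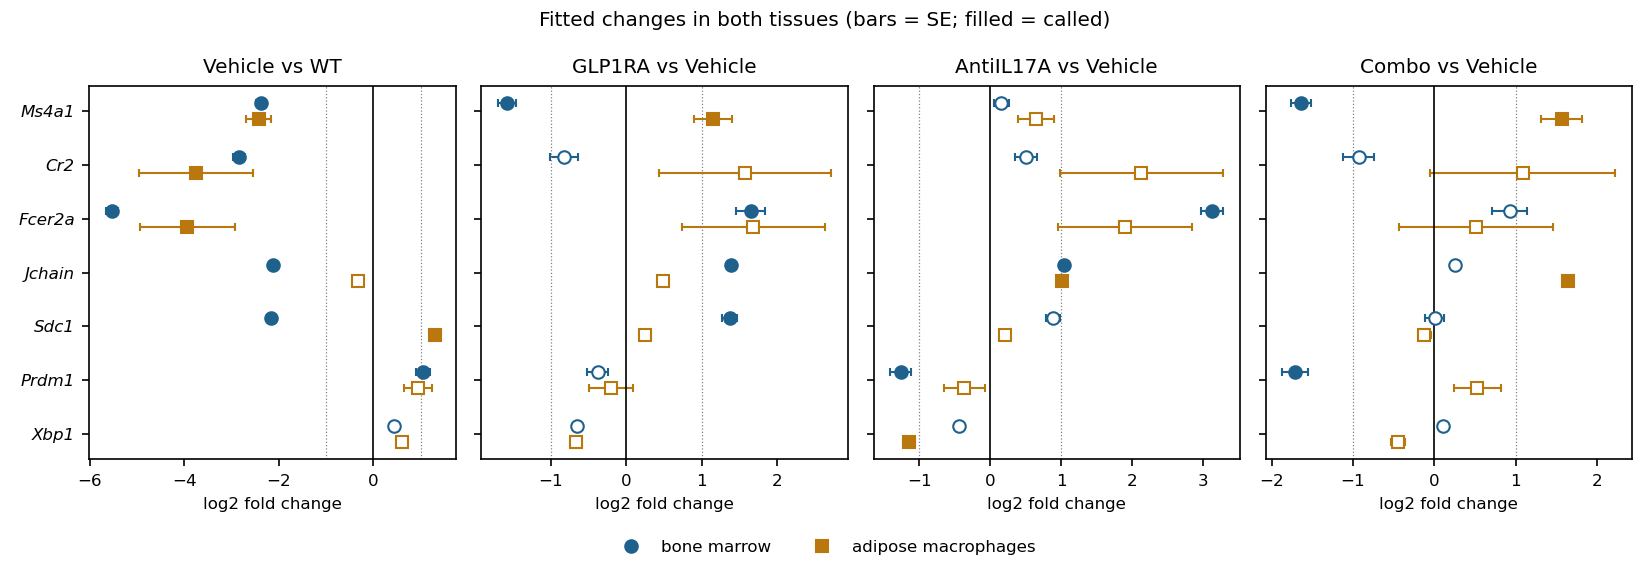
Fitted log2 fold changes (horizontal axes) of the 7 members in 4 comparisons, with circles for BM and squares for ATMs; bars are SE, filled symbols were called, and dotted lines mark the fold limit of 1. Sdc1 lies on opposite sides of 0 in the 2 tissues for Vehicle vs WT, and Ms4a1 does so for Combo vs Vehicle.

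The genes whose profile over the 15 libraries was most like that of a member differ between the tissues. The measure was Pearson's r of log2 CPM among 13195 other genes in BM and 16582 in ATMs, and libraries of a group share their condition. In BM, Ms4a1 was most like Cd79b (r = 0.993), Arl5c and Pafah1b3, Cr2 like Ikzf3 (0.990), Ptprcap and Zfp260, and Fcer2a like Rgs2 (0.989), Tnfrsf19 and Apbb1. The B cell receptor chain Cd79b and the lymphoid factor Ikzf3 are B-lineage genes. Jchain was most like Fam213b (0.986), Sdc1 (0.986) and Sepp1, and Sdc1 like Jchain, Fam213b and Creg1. Prdm1 was most like Snhg1 (0.968), and Xbp1 like Pglyrp1 (0.990), a granule gene of neutrophils, Rpn1 and Slc28a2. In ATMs, Ms4a1 was most like Fgf9 (0.958), Upk3b and Zfyve21, Cr2 like Gng7 (0.951) and Fcer2a like Tmem218 (0.929). Upk3b is a mesothelial gene. Jchain was most like Rrm2 (0.985), Itgam and the T cell receptor chain Cd3g, while Sdc1 was most like Cma1 (0.981), a mast cell protease, Cxcl14 and Rnh1. Prdm1 was most like E030024N20Rik (0.902) and Xbp1 like Sult1a1 (0.945), Cxcl13 and Fam110c. Sdc1 was thus among the 3 genes most like Jchain in BM, and not in ATMs.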

How the data were processed

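RNA was sequenced from whole BM cells and sorted ATMs, 15 libraries each. The authors aligned paired reads to mm10 (GRCm38) with STAR 2.7.2a and counted them on GENCODE M22 genes with featureCounts 2.0.1, without strand, so that antisense reads could not be told apart. The deposited values are raw counts per gene. Summed over all libraries, no BM gene has fewer than 55 counts and no ATM gene fewer than 54.

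Counts were tested in R 4.3.3 with edgeR 4.0.16 (quasi-likelihood test, 2-sided, robust, all 15 libraries of a tissue in 1 model, scaled by TMM; filterByExpr left every gene in). Groups came from the sample labels, which place all libraries in 1 batch. Alternatives used DESeq2 1.42.0, limma 3.58.1, other filters, a replicate block and leaving out each library. The fits were tested on simulated data. Coordinates, exon lengths and overlaps came from GENCODE M21, the release at hand for this build. The members, the marker lists and the tests were chosen with earlier results of these data known. Every member was named. Of each list the 3 genes with the highest mean and the 2 with the largest called change were named, as were up to 3 genes most like each member. Where 5 or fewer genes of a list were called, genes outside that rule (such as Fkbp11, Dnajc3 and Slamf7 in ATMs) were chosen after their values were seen. Within a tissue, same-numbered libraries did not deviate together (median r = 0.013 in BM and 0.0061 in ATMs). Same-numbered libraries of BM and ATMs were not compared.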

Additional observations from a re-analysis of the deposited data

Results flagged for a closer look

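For 5 members an effect differed between BM and ATMs by the test of the difference itself, an interaction of tissue and group in edgeR over 30 libraries, adjusted over 13076 genes. In Vehicle vs WT the difference, as BM minus ATM on the log2 scale, was -3.49 for Sdc1 and -1.80 for Jchain. In Combo vs Vehicle it was -3.25 for Ms4a1, -2.28 for Prdm1, -1.44 for Jchain and 0.51 for Xbp1. Of all genes 56% and 55.1% passed the same test.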

How the results depend on the processing

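The calls of members held in most settings. With no fold-change limit, members called rose in BM from 4 to 7 (GLP1RA vs Vehicle), 3 to 6 (AntiIL17A vs Vehicle), 2 to 6 (Combo vs Vehicle), 3 to 5 (Combo vs GLP1RA) and 3 to 7 (Combo vs AntiIL17A), and in ATMs from 4 to 7 (Vehicle vs WT), 1 to 4 (GLP1RA vs Vehicle), 2 to 4 (AntiIL17A vs Vehicle), 1 to 3 (Combo vs GLP1RA) and 0 to 5 (Combo vs AntiIL17A). With at least 10 counts in every library, Cr2 and Fcer2a were not tested in ATMs and 2 members were called in Vehicle vs WT in place of 4. Sdc1 in BM for Combo vs Vehicle, at 0.0034, reversed to -0.016 with at least 10 counts in every library and with only the 2 groups compared, and to -0.011 in DESeq2 and with its size factors. For Fcer2a the BM minus ATM difference reversed under limma voom with a weight per tissue, to 0.24 in Vehicle vs WT and -0.43 in Combo vs Vehicle, and Cr2 then passed, at 3.42 and -4.06. Cr2 in ATMs lost its call in Vehicle vs WT with only the 2 groups compared (adjusted p = 0.0516) and gained one in Combo vs WT.

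Leaving out 1 library at a time, members called ranged in BM from 5 to 6 (Vehicle vs WT) and from 2 to 4 (Combo vs Vehicle), and did not move in the other 5 comparisons or the 5-group test. In ATMs they ranged from 4 to 5 (Vehicle vs WT), 1 to 2 (GLP1RA vs Vehicle), 1 to 3 (AntiIL17A vs Vehicle), 2 to 3 (Combo vs Vehicle), 4 to 5 (Combo vs WT) and 0 to 1 (Combo vs AntiIL17A), stayed at 1 for Combo vs GLP1RA, and ranged from 6 to 7 in the 5-group test. Signs turned for 6 values. These were Sdc1 in BM for Combo vs Vehicle (-0.068 to 0.057), Cr2 in BM (-0.28 to 0.018) and in ATMs (-1.40 to 0.0012) for Combo vs GLP1RA, and, in ATMs, Fcer2a for Combo vs Vehicle (-0.30 to 2.23) and Prdm1 for AntiIL17A vs Vehicle (-0.68 to 0.062) and GLP1RA vs Vehicle (-0.51 to 0.24).

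The replicate block, with the number shared by libraries as a term, left 6 members called in BM and 4 in ATMs for Vehicle vs WT and moved 1 call, Fcer2a in ATMs for AntiIL17A vs Vehicle, which makes 3 members in place of 2. The cause of these changes was not tested. DESeq2's scaling moved the median of all genes by at most 0.050 on the log2 scale. In ATMs Cr2 and Fcer2a had 0 counts in some Vehicle libraries, so their values there are uncertain. Why these libraries had none was not tested.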

Other observations

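Genes of earlier B cells were also lower in BM of Vehicle than of WT. Of 12 genes of pro-B and pre-B cells 9 were lower and none higher (median log2 fold change -1.92). Rag1, a recombinase of antigen receptor genes, fell from a mean of 4615 to 376 normalized counts and Rag2 from 612 to 27.7, while Bst1 and Erg, which myeloid and stem cells share, were not called. With AntiIL17A 6 of the 12 were higher than in Vehicle, and edgeR called none lower. In ATMs 6 of the 12 genes had a row.

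The list for B-1 and marginal zone B cells did not follow the mature B cell genes in BM. Of 11 genes 2 were higher and 1 lower in Vehicle than in WT (median 0.022). Plac8, which granulocytes also express, rose from 42079 to 111620, Zbtb32 rose from 18.4 to 201, and Cd1d1 fell from 678 to 264. Its summed level was 3677 to 3713 CPM in Vehicle and 1704 to 1741 in WT, and Plac8 was the most abundant of its genes.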
